A study of Mus musculus with 6 samples.

Results

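Immediate early genes are transcribed within minutes of a stimulus without new protein synthesis, and the MAP kinase phosphatases among them remove the phosphates that activate the kinases. In mouse heart, 35 such genes were examined: the Fos and Jun subunits of the AP-1 transcription factor, Atf3, Maff and Myc, the zinc finger factors of the Egr and Klf families, the Nr4a orphan nuclear receptors, 6 dual-specificity phosphatases (Dusp), and the Ier, Btg, Zfp36 and Gadd45 genes. Members were all probe sets that the array's annotation pairs with exactly 1 of these genes, which gave 62 of 45037 probe sets, for 35 of 18193 genes. Of these, 40 probe sets of 26 genes had a mean log2 signal above the brightness filter of 3.285, which is the median of all probe sets, and could be tested.

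The series held 6 whole-genome expression arrays of heart RNA, 3 from C57BL/6 mice that overexpressed hAT1R, the human type 1 receptor of angiotensin II, and 3 from normal C57BL/6 mice. Animals were matched for age and sex per the series design text. Neither the age itself nor the promoter that drives the transgene, the number of lines or any pooling is stated in the labels. Nothing in the labels says that each array is a separate animal, so the p-values reflect only how much these arrays vary, which may in part be technical variation, and 3 arrays a group limit the precision.

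Angiotensin II acts through its type 1 receptor on G proteins and MAP kinases, and the serum response factor with its ternary complex partners and CREB, the cAMP response element binding protein, carry such signals to the promoters of immediate early genes. Fos and Jun proteins pair to form AP-1, Egr1 and the Klf factors bind GC-rich promoter elements, and Dusp1, a nuclear phosphatase, and Dusp6, a cytoplasmic one, close the loop by switching off MAP kinases. Zfp36, or tristetraprolin, shortens the life of messages with AU-rich ends, many of them early response messages.

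Several facts of the whole series touch the values below. In the instrument's records the name typed into the chip lot field held the word control on all 3 arrays labelled transgenic and the word transgene on the other 3, so "labelled transgenic" is written throughout, and taking the typed names would turn every sign. Fluidics station 2, which washes and stains the chips, handled 4 arrays, namely the labelled transgenic ones and non-transgenic array 1, and station 3 handled non-transgenic arrays 2 and 3. Scanning took the labelled transgenic arrays first, so scan order and group cannot be told apart. Xist, which marks females, was at log2 9.48, 2.58 and 9.48 on labelled transgenic arrays 1, 2 and 3, against 2.49, 9.69 and 3.01, so Xist was high on 2 of 3 labelled transgenic and 1 of 3 non-transgenic arrays, which goes against a full match for sex. By the brightest probe set of each gene, none of 7 cardiomyocyte and 7 endothelial markers reached an unadjusted p of 0.05 in the limma fit, while a dimmer probe set of Tnnt2, cardiac troponin T, was at -0.46 ± 0.11 (limma, adjusted p = 0.141). The summed log2 levels of the cardiomyocyte markers were still lower without overlap, from 105.6 to 106.1 against 106.2 to 106.5. Actc1, Ryr2 and Pln each lay wholly below, at -0.08, -0.29 and -0.12, as 9.78% of all probe sets tested did. Myh6, Tnnt2 and Myl2 were slightly above 0 on their brightest probe sets, at 0.01, 0.02 and 0.01, and Tnni3 was at -0.10 with overlap. By contrast, all 6 fibroblast and all 7 macrophage markers were higher at that unadjusted p, as 10.4% of all genes tested were. Their summed log2 levels ran from 58.2 to 60.3 against 54.7 to 56.5 for fibroblasts and from 61.4 to 62.4 against 57.3 to 58.3 for macrophages, and their part in the member values was not tested. Of 6 smooth muscle and pericyte markers 2 were lower, as 7.76% of all genes tested were, and 0 were higher. Their median change of -0.22 became 0.085 with the fluidics station as a block. The 3 lung markers were all below the brightness filter. Of the atrial markers, Nppa, the natriuretic peptide gene, passed the test, at 14.42, 14.69 and 14.53 against 12.69, 12.07 and 12.29, a change of 2.19 ± 0.17 (limma, adjusted p = 0.0257, with 0.00959 and 0.169 as the extremes among the alternatives). The other atrial markers did not follow it: Myl4 was at -0.12 ± 0.11 (limma, adjusted p = 0.650), and Myl7 and Sln were below the brightness filter. In whole tissue, fewer cells of a type and less RNA per cell cannot be told apart.

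The members as a group lay higher on the labelled transgenic arrays, but none passed the test over all probe sets. limma's moderated test, adjusted by Benjamini-Hochberg over 22518 probe sets, called 0.218% of all probe sets and 0 of the 40 members, whose smallest adjusted p was 0.118. At an unadjusted p under 0.05, 14 of the 40 members lay higher in labelled transgenic hearts and 0 lay lower, where 9.41% of all probe sets did the first and 6.98% the second. These 14 probe sets belong to 7 genes: Egr1, Ier5, Ier3, Klf6, Jun, Dusp8 and Btg1. The 3 labelled transgenic values all lay above the 3 others in 15 members (background 13.2%) and below them in 0 (background 9.78%). The median change of the 40 was 0.31 on the log2 scale, labelled transgenic minus non-transgenic, against 0.01 over all probe sets tested, and 32 of the 40 lay above 0 (background 52.5%). Counted with the brightest probe set of each gene, 7 of 26 genes were higher at the unadjusted p (background 10.4%) and 0 lower (background 7.76%), and 19 of 26 lay above 0 (background 52.4%). The members share arrays and some are probe sets of the same gene, so these counts are a description. The median and the counts above 0 include Egr3, which passed the brightness filter only through the labelled transgenic group and so had to lie above 0. Over all 62 probe sets, tested without the brightness filter, 14 were higher (background 5.34%), 0 were lower (background 4.09%) and 0 passed (background 0.0333%).

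**Figure D1:**
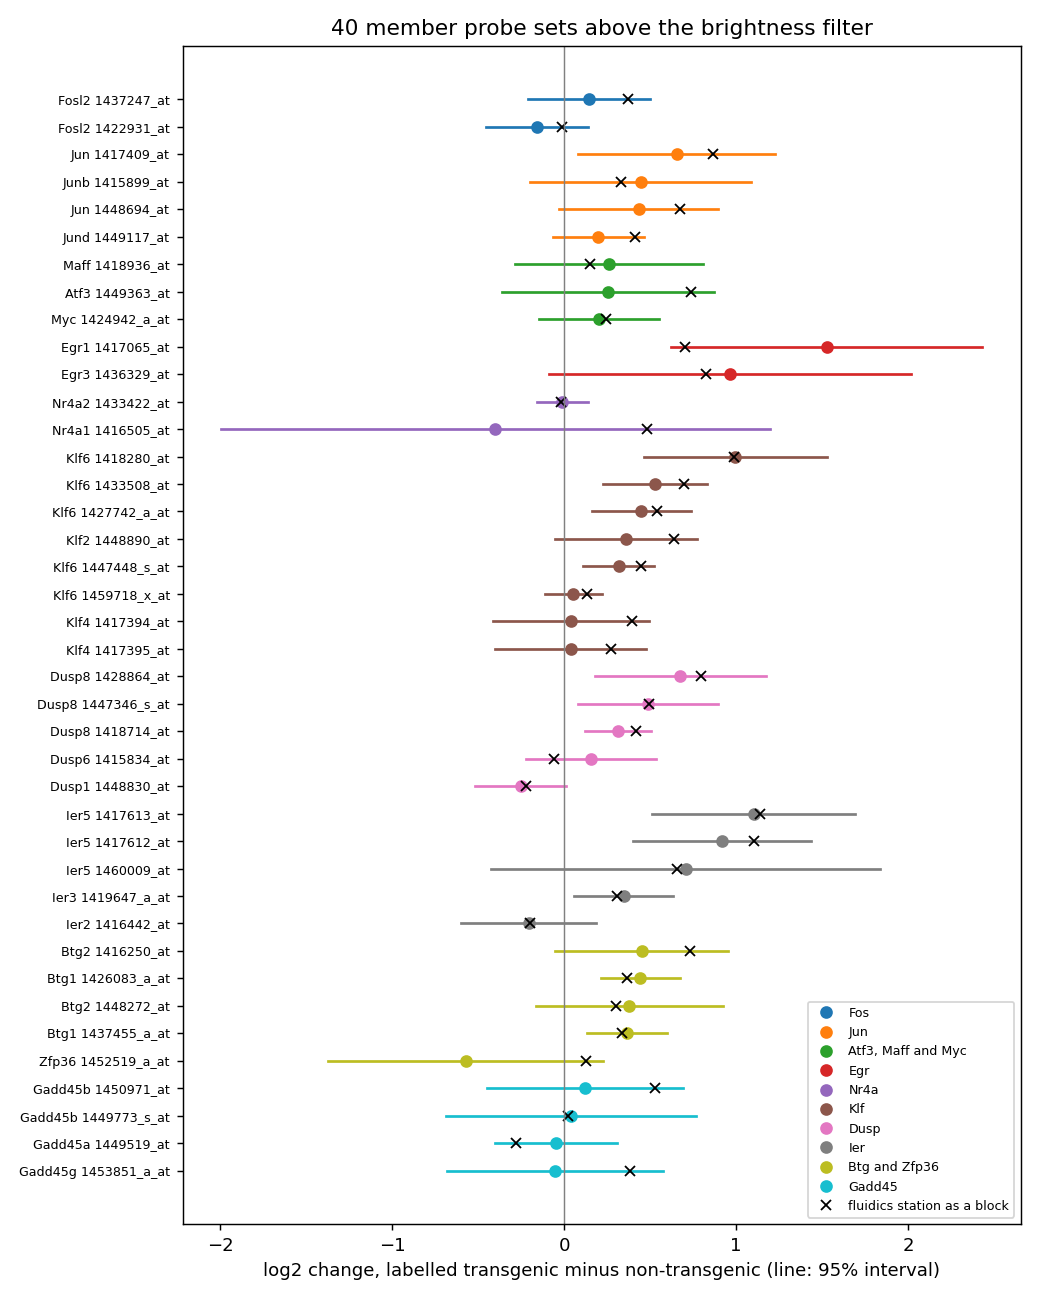
Log2 change of each of the 40 member probe sets above the brightness filter, labelled transgenic minus non-transgenic arrays (x axis), with limma's 95% interval as a line, coloured by family; crosses give the change with the fluidics station as a block. Intervals of 14 probe sets lie wholly above 0, none lies wholly below it, and the widest belongs to Nr4a1.

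Among the Egr factors, Egr1 had by value the largest difference of all members tested. Egr1, a zinc finger factor that is a classical marker of MAP kinase signalling, was at log2 7.41, 7.44 and 7.61 on labelled transgenic arrays 1, 2 and 3 and at 6.78, 5.22 and 5.87 on the non-transgenic ones. The labelled transgenic arrays were tightly grouped and all above the others, which spread over more than 1 log2 unit. Egr1 averaged 7.49 ± 0.11 (SD, n = 3) against 5.96 ± 0.78, a change of 1.53 ± 0.37 (SE), or 2.88-fold, with a 95% interval from 0.62 to 2.43 (limma, adjusted p = 0.148). Its adjusted p was at least 0.0744 and at most 0.362 across the alternatives. The size depended on the station. With it as a block, which rests on non-transgenic array 1 as the only control of that station, the Egr1 difference was 0.70 (limma, adjusted p = 0.299). Egr3, a related factor, was dim and split within its group, at 2.91, 4.27 and 4.65 against 3.12, 2.92 and 2.90. Labelled transgenic array 1 thus lay with the controls for Egr3, and the change of 0.96 ± 0.43 (limma, adjusted p = 0.341) became 1.48 without that array (limma, adjusted p = 0.0468), the single member call in any of the fits made. Egr3 passed the brightness filter only through the labelled transgenic group, whose mean was 3.95 against 2.98, so it had to differ to be tested and that call supports nothing. The adjusted p of Egr3 ran up to 0.668 over the alternatives, and its second probe set was below the filter, at -0.14. Egr2 and Egr4 had dim probe sets only.

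**Figure D2:**
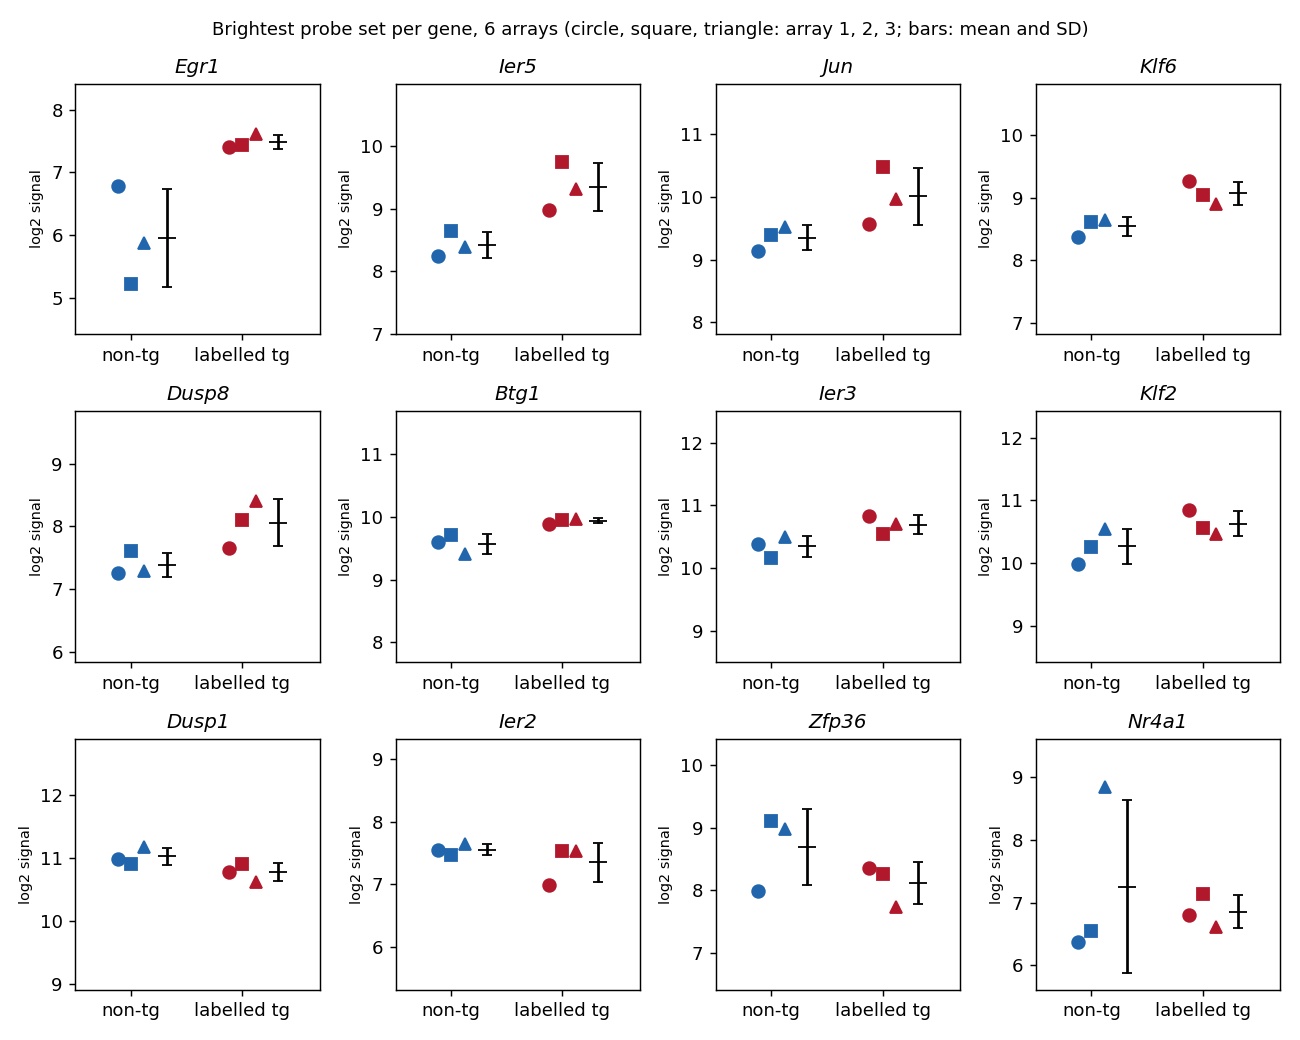
Log2 signal (y axis, 4 log2 units in every panel) of the brightest probe set of 12 members on each non-transgenic (blue) and labelled transgenic (red) array, with circles, squares and triangles for arrays 1, 2 and 3 and the mean ± SD of each group beside them. Egr1, Ier5, Jun, Klf6, Dusp8, Btg1 and Ier3 show no overlap between groups, while Nr4a1 is set apart by non-transgenic array 3 at 8.85.

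Of the Ier genes, Ier5 differed most. Ier5, a serum-inducible gene whose product takes part in the heat shock response, was at 8.97, 9.75 and 9.31 on its brightest probe set against 8.24, 8.65 and 8.39. All labelled transgenic arrays were above the others and array 2 was the highest. The change was 0.92 ± 0.21, or 1.89-fold, with a 95% interval from 0.40 to 1.44 (limma, adjusted p = 0.134, at lowest 0.0685 and at highest 0.335 in the alternatives). A second Ier5 probe set, at 7.32, 8.31 and 7.75 against 6.66, 6.79 and 6.63, gave 1.102 ± 0.24 (limma, adjusted p = 0.123). The third was dim, at 5.23 on labelled transgenic array 2 and between 3.33 and 3.74 on the other 5 arrays. Labelled transgenic array 2 was thus the highest on all 3 Ier5 probe sets. Ier3, a survival gene of the growth factor response, was at 10.84, 10.54 and 10.70 against 10.38, 10.17 and 10.49, a change of 0.35 ± 0.12 (limma, adjusted p = 0.240). Ier2 went the other way by value, at 6.99, 7.53 and 7.53 against 7.55, 7.47 and 7.65, a change of -0.21 ± 0.16 (limma, adjusted p = 0.583), with labelled transgenic array 1 alone well below the rest.

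The Jun side of AP-1 was measurable and the Fos side mostly was not. Jun, the main DNA-binding partner of Fos proteins, was at 9.57, 10.47 and 9.97 against 9.14, 9.39 and 9.52. The groups did not overlap, although labelled transgenic array 1 and non-transgenic array 3 lay close together. Jun differed by 0.66 ± 0.24, or 1.58-fold, with a 95% interval from 0.08 to 1.23 (limma, adjusted p = 0.257, from 0.150 to 0.514 over the alternatives). Its other probe set, at 0.43 ± 0.19, overlapped between groups. Without labelled transgenic array 2, the highest, the brighter probe set was at 0.42. Junb, a partner with weaker activating function, was at 5.64, 6.53 and 5.63 against 5.61, 5.26 and 5.60, so that only labelled transgenic array 2 stood clear of the others. Its change was 0.44 ± 0.26 (limma, adjusted p = 0.462), and 0.15 without that array. Jund, the most constitutive Jun, was at 8.73, 8.60 and 8.64 against 8.24, 8.55 and 8.58, a change of 0.20 ± 0.11 (limma, adjusted p = 0.428).

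Fos itself was dim, at 3.54, 3.73 and 2.35 in labelled transgenic hearts against 2.93, 2.53 and 2.62. Labelled transgenic arrays 1 and 2 were the highest and array 3 the lowest of all 6. With a mean of 2.95 Fos lay below the brightness filter, and in the fit without that filter its change was 0.51 ± 0.39 (limma, adjusted p = 0.827). Fosb and Fosl1 gave values that ranged by 0.04 to 0.05 over the 6 arrays, from probe sets at 2.09 to 2.63. Fosl2, a longer-lived Fos relative, was the only Fos family member above the filter. Its brighter probe set read 7.04, 6.75 and 6.69 against 6.46, 6.89 and 6.69, a change of 0.15 ± 0.15 (limma, adjusted p = 0.671), and its dimmer one read -0.16 ± 0.12. Fosl2 groups overlapped on both.

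Atf3, Maff and Myc were all of modest brightness, and none reached an unadjusted p of 0.05. Atf3, a stress-induced bZIP repressor, was at 4.53, 4.55 and 4.73 against 3.87, 4.28 and 4.90, with non-transgenic array 3 the highest of all, and differed by 0.26 ± 0.25 (limma, adjusted p = 0.665). Atf3 was at 0.74 once the station was a block. Maff, a small Maf factor, was at 5.99 on labelled transgenic array 1 and between 5.12 and 5.32 on the other 5 arrays. Myc, the growth regulator, was likewise at 4.62 on that array and between 4.05 and 4.15 elsewhere. For both genes array 1 thus carried the difference, which was 0.26 ± 0.22 for Maff and 0.20 ± 0.14 for Myc, and without array 1 Maff was at 0.00013 and Myc at 0.04.

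Klf6, a zinc finger factor first described in injured tissue, had more probe sets at an unadjusted p under 0.05 than any other member. On its brightest one the labelled transgenic arrays read 9.27, 9.05 and 8.90 and the others 8.37, 8.61 and 8.65. Every labelled transgenic array exceeded every control on this probe set, with a change of 0.53 ± 0.13, or 1.44-fold, and a 95% interval from 0.22 to 0.83 (limma, adjusted p = 0.142, from 0.0779 to 0.281 over the alternatives). Of the 5 Klf6 probe sets, 4 had no overlap and an unadjusted p under 0.05, with changes from 0.32 to 0.996, and the dim one was at 0.05. Klf2, the shear-stress factor of endothelium, was at 10.85, 10.57 and 10.46 against 9.99, 10.26 and 10.55. Non-transgenic array 3 reached the labelled transgenic range, and the change was 0.36 ± 0.17 (limma, adjusted p = 0.358). Klf4, its close relative, was at 9.21, 9.36 and 8.95 against 8.78, 9.20 and 9.41, with groups fully mixed. Its 2 probe sets gave 0.04 ± 0.19 and 0.04 ± 0.18, with a 95% interval from -0.42 to 0.50 on the brighter, and signs that turned when single arrays were left out.

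The phosphatases differed among themselves by value. Dusp8, which acts on the stress kinases JNK and p38, was at 7.66, 8.11 and 8.41 against 7.26, 7.60 and 7.29. The groups did not overlap, and Dusp8 differed by 0.67 ± 0.20, or 1.60-fold, with a 95% interval from 0.18 to 1.17 (limma, adjusted p = 0.202, from 0.109 to 0.416 over the alternatives). All 3 Dusp8 probe sets reached an unadjusted p under 0.05, the others at 0.31 ± 0.08 and 0.49 ± 0.17, the last with overlap. Dusp1 was at 10.78, 10.91 and 10.63 against 10.99, 10.91 and 11.18, a change of -0.25 ± 0.11 with a 95% interval from -0.52 to 0.01 (limma, adjusted p = 0.326). Array 2 of both groups lay at the same level for Dusp1, so the groups met. Dusp6, the ERK-specific phosphatase that ERK signalling itself induces, was at 7.44, 7.36 and 7.81 against 7.60, 7.20 and 7.35. Dusp6 differed by 0.16 ± 0.16 (limma, adjusted p = 0.670) and by -0.06 with the station as a block. Dusp2, Dusp4 and Dusp5 had dim probe sets only, and Dusp4 was at 3.62 on labelled transgenic array 1 and between 2.99 and 3.12 elsewhere.

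The Nr4a nuclear receptors rested on 1 gene and 1 array. Nr4a1, also called Nur77, was at 6.81, 7.14 and 6.62 against 6.38, 6.55 and 8.85. Non-transgenic array 3 exceeded the others by more than 1.5 log2 units. The change was -0.40 ± 0.66, with a 95% interval from -1.998 to 1.197 (limma, adjusted p = 0.811), and without non-transgenic array 3 it was 0.40 (limma, adjusted p = 0.420). With the station as a block it was 0.48, so no direction is given. The sole Nr4a2 probe set above the filter read 3.31 to 3.37 on all 6 arrays, its other 5 and the 3 of Nr4a3 were dim, and in these the values ranged by 0.05 to 0.28.

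Btg1, an antiproliferative gene of quiescent cells, had the smallest p of all members. Its second brightest probe set was at 9.66, 9.62 and 9.55 against 9.25, 9.26 and 8.996, with no overlap, and differed by 0.44 ± 0.09 (limma, adjusted p = 0.118, from 0.0675 to 0.281 over the alternatives). The brightest Btg1 probe set gave 9.89, 9.95 and 9.97 against 9.60, 9.72 and 9.40, a change of 0.37 ± 0.10 or 1.29-fold (limma, adjusted p = 0.161). Btg2, a p53 target and early response gene, was at 8.47, 8.97 and 8.83 against 8.02, 8.20 and 8.68, with overlap and a change of 0.45 ± 0.21 (limma, adjusted p = 0.348). Zfp36 was at 8.36, 8.27 and 7.73 against 7.99, 9.10 and 8.99. Non-transgenic arrays 2 and 3, the only ones of station 3, were the highest, and non-transgenic array 1 lay within the labelled transgenic range. Zfp36 differed by -0.57 ± 0.33 (limma, adjusted p = 0.448) and by 0.13 with the station as a block.

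The Gadd45 genes, sensors of growth arrest and DNA damage that feed into p38, did not separate the groups. Gadd45a was at 7.64, 7.98 and 7.99 against 8.15, 7.85 and 7.75, a change of -0.05 ± 0.15 with a 95% interval from -0.40 to 0.31. Gadd45b was at 7.02, 6.86 and 6.44 against 6.25, 6.69 and 7.02, a change of 0.12 ± 0.23 with a 95% interval from -0.45 to 0.69. Gadd45g was at 7.62, 7.29 and 7.36 against 7.04, 8.04 and 7.34, a change of -0.05 ± 0.26 with a 95% interval from -0.68 to 0.58. A second Gadd45b probe set was at 0.04 ± 0.30. The arrays were interleaved for all 3 genes, and each of the signs turned in at least 1 alternative. Over their tested probe sets the adjusted p-values in limma ran from 0.842 to 0.964.

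**Figure D3:**
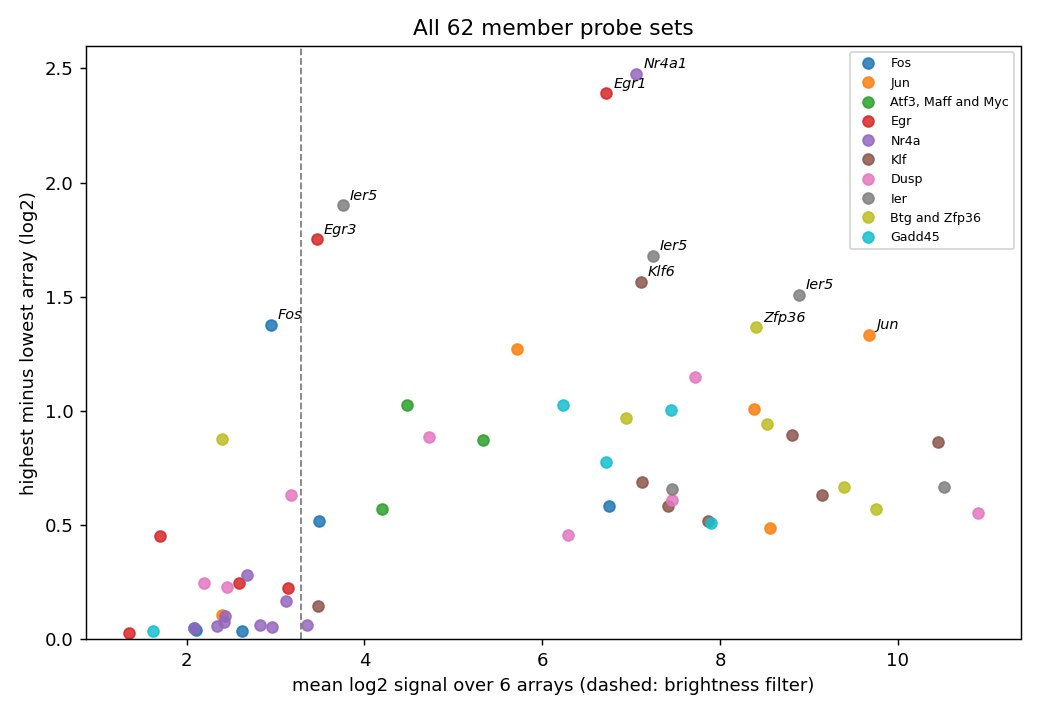
Mean log2 signal over the 6 arrays (x axis) against the difference between the highest and the lowest array (y axis) for all 62 member probe sets, coloured by family, with the brightness filter dashed; probe sets that ranged by more than 1.3 are named. Most probe sets left of the line are flat, the exceptions being Fos at a range of 1.38, Btg1 at 0.88, Dusp4 at 0.63 and Egr3 at 0.45, and Nr4a1 and Egr1 vary most.

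In all, 22 member probe sets were dim, and 9 genes, Fos, Fosb, Fosl1, Egr2, Egr4, Nr4a3, Dusp2, Dusp4 and Dusp5, had no brighter one. Of the 22, 18 differed by less than 0.3 between their highest and lowest array. The 4 exceptions were probe sets of Fos, Egr3, Dusp4 and Btg1. At such levels a difference could not be measured here, and no lack of change is read from these members.

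The family levels fell into sets by the array on which they were highest. A family's level on an array is the mean over its tested probe sets of the deviation from each probe set's 6-array mean, on the log2 scale. Jun genes were at -0.02, 0.55 and 0.12 on labelled transgenic arrays 1, 2 and 3 and at -0.35, -0.19 and -0.11 on the non-transgenic arrays. The Ier level followed with -0.08, 0.70 and 0.24 against -0.32, -0.27 and -0.27, and 3 of its 5 probe sets are of Ier5. The Btg and Zfp36 group was at 0.03, 0.21 and 0.08 against -0.27, -0.08 and 0.02. By these levels the 3 sets put the 6 arrays in the same order, with labelled transgenic array 2 first and non-transgenic array 1 last. Single genes did not all follow. Jund and Ier3 were highest on labelled transgenic array 1, Ier2 on non-transgenic array 3 and Zfp36 on non-transgenic array 2. Btg1 was highest on labelled transgenic array 3 or 1, depending on the probe set, and Btg2 on labelled transgenic array 2 or 3. Egr genes were instead highest on labelled transgenic array 3, at 0.07, 0.76 and 1.04 against -0.14, -1.02 and -0.71. That level averages Egr1 with Egr3, which entered only through the group where it was high. Egr1 alone, an alternative chosen after seeing the data, was at 0.69, 0.71 and 0.89 against 0.06, -1.50 and -0.85, with the same order of arrays. The Dusp level shared that peak, at -0.01, 0.18 and 0.25 against -0.15, -0.18 and -0.08, and the Egr and Dusp levels were lowest on non-transgenic array 2. Of the 5 Dusp probe sets 3 are of Dusp8. Its brightest one and Dusp6 were highest on labelled transgenic array 3, but its dimmer ones were highest on labelled transgenic array 2. Dusp1 was lowest of all 6 arrays on labelled transgenic array 3, at 10.63. The Klf level was highest on labelled transgenic array 1, at 0.29, 0.22 and 0.02 against -0.34, -0.11 and -0.07. Of its 8 probe sets 5 are of Klf6, and those of Klf4 were highest on non-transgenic array 3. The level of Atf3, Maff and Myc also peaked on labelled transgenic array 1, at 0.38, -0.03 and 0.01 against -0.26, -0.16 and 0.05. Levels of 6 of the 10 families did not overlap between groups (Jun, Egr, Klf, Dusp, Ier, and Btg with Zfp36), and when the probe sets of each gene were averaged first 3 did not. The Btg and Zfp36 group cleared narrowly, at 0.03 against 0.02. Of single probe sets tested, 13.2% lay wholly above and 9.78% wholly below. No such share was computed for averages over sets of probe sets, so the family count is only a description. The Fos, Nr4a and Gadd45 families and the Atf3 set overlapped.

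**Figure D4:**
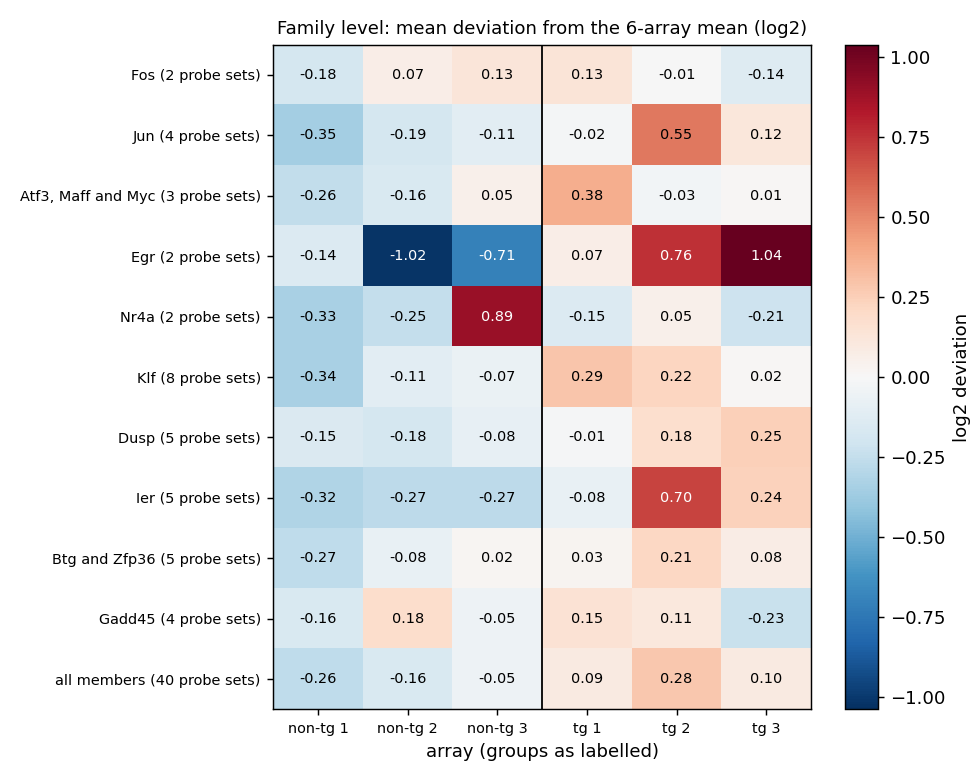
Level of each family (rows, with its number of tested probe sets) on each array (columns, groups as labelled), as the mean log2 deviation from the 6-array mean, red above and blue below. The Jun and Ier levels are highest on transgenic-labelled array 2 (0.55 and 0.70) and the Egr and Dusp levels on array 3 (1.04 and 0.25). The Klf level is highest on array 1 (0.29) and the Nr4a level on non-transgenic array 3 (0.89).

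Since the groups differ in level, likeness between families was described after removing the group means, over 6 arrays that share one normalization, without a test. Of 45 family pairs, Jun with Ier had a Pearson r of 0.93 and Jun with the Btg and Zfp36 group 0.82. Egr with Dusp had 0.74, but Egr1 alone with Dusp had 0.19. Klf with Fos, here Fosl2 alone, had 0.98, and Klf with Gadd45 had 0.82. Egr ran opposite to Fosl2 at -0.90, to Klf at -0.87 and to Gadd45 at -0.85, and Egr1 alone at -0.71, -0.70 and -0.71. Among the controls, non-transgenic array 1, the only one of station 2, was the highest for Egr and the lowest for Fosl2, Klf and Gadd45. Removing the group means leaves this station split in all of these r values, and its part was not tested. The level of all members together was 0.09, 0.28 and 0.10 against -0.26, -0.16 and -0.05.

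The level of the heat shock genes, a list of 11, put the arrays in the order that the Jun, Ier and Btg levels did. Within those sets Jund, Ier2, Ier3, Btg1 and Zfp36 were not highest on labelled transgenic array 2. The heat shock level was 0.02, 0.92 and 0.17 in labelled transgenic hearts against -0.55, -0.35 and -0.21. Hspa1a, the inducible Hsp70, was at 5.27, 8.37 and 5.65 against 3.60, 3.26 and 4.25, which sets labelled transgenic array 2 apart as Ier5, Jun and Junb do. None of the 11 passed the limma test, 7 reached an unadjusted p under 0.05, all of them higher (background 10.4% higher, 7.76% lower and 0.227% passing), and the smallest p-values were those of Bag3, a cochaperone, at 0.33 ± 0.07 (adjusted p = 0.104) and Hsp90aa1 at 0.81 ± 0.19 (adjusted p = 0.144). The part of heat shock, of sex or of array 2 in the Jun and Ier values was not tested. Without that array Ier5 was at 0.72 (limma, adjusted p = 0.227) and Jun at 0.42 (limma, adjusted p = 0.403). With the Xist level as a covariate Ier5 was at 0.96, Jun at 0.75, Egr1 at 1.69 and Klf6 at 0.50. The 3' minus 5' difference of the actin control probe sets, a gauge of RNA integrity, was 0.879 ± 0.0742 (SD, n = 3) log2 units in labelled transgenic hearts against 1.01 ± 0.0403, and its part was not tested.

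Genes upstream of the members were counted by the brightest probe set of each gene, with the same backgrounds of 10.4% and 7.76%. Of 26 tested genes of the MAP kinase cascade 0 passed the limma test, while at an unadjusted p under 0.05 none was higher and 1 was lower, with a median change of 0.00041. Their smallest p-values were those of Map3k3 at -0.32 ± 0.12 and Rps6ka5, a nuclear kinase of CREB and histone H3, at -0.47 ± 0.20. Of 18 genes of the SRF, ternary complex and CREB list 0 passed, 1 was higher and 1 lower. These were Srf, the serum response factor, at 0.25 ± 0.09, and Mef2d at -0.26 ± 0.08, while other probe sets of Srf and Mef2d were at 0.06 for the first and at 0.07 and 0.19 for the second.

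Other early response and feedback genes were mixed. Of 30 tested early response genes outside the member list, 1 rose in limma, and at an unadjusted p under 0.05 there were 4 above and 2 below (background 10.4% and 7.76%). Ccn2, a matricellular growth factor, was the one that passed, at 10.97, 10.98 and 11.20 against 9.40, 9.45 and 9.52, a change of 1.60 ± 0.09 (adjusted p = 0.0167), with 0.00436 as the lowest and 0.169 as the highest adjusted p among the alternatives. It did not pass with the station as a block or with the Xist level as a covariate, nor without labelled transgenic array 2 or 3 or any 1 of the non-transgenic arrays. Of 18 other dual-specificity phosphatases, Sprouty and Spred genes 0 passed, 3 were higher and 3 lower. Dusp18 had the smallest p of these, at 7.65, 6.93 and 7.03 against 8.34, 8.34 and 8.32, a change of -1.13 ± 0.19 (limma, adjusted p = 0.0780, from 0.0275 to 0.276 over the alternatives), where Dusp8 was on the other side of 0. Spry2, an inhibitor of receptor tyrosine kinase signalling, was at -0.45 ± 0.10 while Spry1 was at 0.53 ± 0.13. Of 22 other Klf, Maf, Batf and Zfp36 factors 0 passed, 3 were higher and 2 lower, and Klf13 and Klf11 were at -0.37 ± 0.08 and -0.65 ± 0.16, opposite in sign to Klf6.

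Egr1, Egr3, Fosl1, Myc, Ier2 and Dusp4 had no entry in the RefSeq promoter table (assembly GRCm38.p6), so their promoters were not searched. The promoters of the 29 other members were in it, as 35 stretches of 250 bases before a start site. They were searched on both strands for the CArG box that binds serum response factor, the full cAMP response element (CRE) TGACGTCA, its shorter core TGACG, which every full CRE also contains, and the AP-1 site TGAGTCA, which is TGACTCA on the other strand. A full CRE was found in 4 of the 35 stretches, those of Dusp1, Dusp8, Btg2 and Maff, against 1.55% of all 32851 stretches of that length. The core was found in 20 of 35 (17.8% of all), the CArG box in 6 (1.47% of all), of which 4 are of Egr2, where 3 of the 4 stretches overlap one another, and the others are of Dusp5 and Zfp36, and the AP-1 site in 0 (4.46% of all). Dusp8 and Dusp1 are shown because both carry the full CRE but differed in direction by value, Zfp36 for its CArG box, and Ier5 because it was among the members that differed most and held none of the motifs. All 4 are on the minus strand, printed 5′ to 3′ up to the base before the start site, with matches in capitals.
Dusp8, chr7:142095285-142095534: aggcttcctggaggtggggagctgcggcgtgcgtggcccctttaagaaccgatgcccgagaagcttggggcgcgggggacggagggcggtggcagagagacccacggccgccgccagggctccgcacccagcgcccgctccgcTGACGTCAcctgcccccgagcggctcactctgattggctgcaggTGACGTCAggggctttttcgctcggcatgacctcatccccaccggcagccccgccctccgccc
Dusp1, chr17:26508473-26508722: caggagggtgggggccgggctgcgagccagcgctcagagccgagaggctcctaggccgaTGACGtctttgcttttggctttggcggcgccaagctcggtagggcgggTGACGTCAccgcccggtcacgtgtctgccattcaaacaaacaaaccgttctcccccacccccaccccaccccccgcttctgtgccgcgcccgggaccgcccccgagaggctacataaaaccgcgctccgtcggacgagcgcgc
Zfp36, chr7:28379229-28379478: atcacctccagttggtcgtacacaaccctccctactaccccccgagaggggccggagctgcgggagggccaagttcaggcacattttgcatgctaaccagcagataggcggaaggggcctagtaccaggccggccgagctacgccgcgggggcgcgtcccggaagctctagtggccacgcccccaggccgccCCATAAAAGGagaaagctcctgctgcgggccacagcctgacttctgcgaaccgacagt
Ier5, chr1:155099637-155099886: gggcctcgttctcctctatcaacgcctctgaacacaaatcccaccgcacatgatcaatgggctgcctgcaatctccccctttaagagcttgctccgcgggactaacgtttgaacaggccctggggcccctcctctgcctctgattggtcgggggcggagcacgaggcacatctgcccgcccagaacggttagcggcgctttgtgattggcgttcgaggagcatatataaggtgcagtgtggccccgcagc

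The Dusp8 stretch held the full CRE at 107 and at 63 bases before the start, and that of Dusp1 held it at 143, with a further core at 191. The Zfp36 CArG box began 58 bases before the start. Of the genes with a full CRE, Dusp8, Btg2 and Maff read 0.67, 0.45 and 0.26 on their brightest probe sets, and Dusp1 read -0.25. Of the genes higher at the unadjusted p, Klf6, Jun, Ier3 and Ier5 held none of the 4 motifs in this window. Dusp8 and Btg1 held the core, Egr1 was not searched, and the part of any motif in the values was not tested. A match is a run of letters and not a measured binding site.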

How the data were processed

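Values were used as deposited, on a log2 scale with 1 value per probe set and array. The authors made these log2 values with GCRMA, per the submitters' processing notes, and the GCRMA version is not given in these sources. The other deposited files are instrument records with text fields of no unit, from which station, scan order and the chip lot word were read. Of 45101 probe sets, 64 controls were removed, and genes were named through the array's annotation table.

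Probe sets with a mean over the 6 arrays above 3.285 (the median of all) were kept, 22518 in all. Groups were compared with limma 3.58.1 in R 4.3.3 (lmFit, eBayes, 2-sided), with Benjamini-Hochberg adjustment over all kept probe sets and a threshold of 0.05. Changes are given as value ± SE. The fit was tested on simulated data. Members and lists were chosen with earlier results of these data known, so no list was tested. Values were to be given for members past the threshold, for the 3 genes of each family with the smallest unadjusted p on their brightest probe set, and always for Fos, Jun, Egr1, Atf3, Myc, Nr4a1, Dusp1, Dusp6, Klf2, Klf4, Btg2 and Gadd45b. From other lists the rule named genes past the threshold, or else the 2 with the smallest unadjusted p. Hspa1a and Spry1 lie outside this rule and were chosen after their values were seen. Alternatives covered the brightness filter, normalization, variance model, blocks by replicate number and station, the Xist level, gene means and each array left out.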

Additional observations from a re-analysis of the deposited data

How the results depend on the processing

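Of 576 member values under the alternatives, 553 kept their direction and their side of the threshold, and 29 of the 40 tested members never turned sign. limma called 49 of all probe sets, 15 without the brightness filter, 302 with a mean above log2 6, 102 with a variance trend and robust fit, 2 with the station as a block and 0 with the Xist level as a covariate (3126 at an unadjusted p under 0.05), and 0 to 75 with each array left out. Members called stayed at 0 except for 1, Egr3, without labelled transgenic array 1. Early response genes called went from 1 to 2 without the filter, 4 above log2 6, 3 with the trend and robust fit, 2 with gene means, 0 with station or Xist, and 0 to 1 with each array left out. Other dual-specificity phosphatases called went from 0 to 1 above log2 6, and 0 to 1 with each array left out.

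The median change of all members was 0.105 without the filter, where Egr was 0.00761 and Dusp 0.185. Above log2 6 the Fos median was 0.145. With the station as a block it was 0.179 for Fos, 0.763 for Egr, 0.493 for Klf, 0.419 for Dusp and 0.204 for Gadd45. With gene means it was 0.156 for Dusp and 0.345 for Ier, and 3 families did not overlap in place of 6. With the Egr level from Egr1 alone, chosen after seeing the data, 6 did not overlap. With each array left out, the Ier median ran from 0.421 to 1.08 and that of Atf3, Maff and Myc from 0.0407 to 0.285.

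Signs turned with the station as a block for Nr4a1 (0.48), Dusp6 (-0.060), Zfp36 (0.13) and Gadd45g (0.38), and with gene means for Fosl2 (-0.0071). With each array left out, values crossed 0 for Nr4a1 (-0.84 to 0.40, positive without non-transgenic array 3), Nr4a2 (-0.024 to 0.0072, positive without labelled transgenic array 1), Klf4 (-0.14 to 0.18 and -0.078 to 0.21 on its 2 probe sets), Gadd45a (-0.13 to 0.069), Gadd45b (-0.079 to 0.30 and -0.14 to 0.38) and Gadd45g (-0.27 to 0.23). The cause was not tested.

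The replicate numbers did not pair the samples. Deviations of same-numbered arrays correlated at -0.0831, -0.174 and -0.0067, and with the replicate number as a block limma called 0 of all probe sets (3324 at an unadjusted p under 0.05) and 0 early response genes. With 3 arrays a group, signal near the brightness filter limits what can be seen for 22 member probe sets.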
